A study of Mus musculus with 19 samples.

Results

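Fast excitation in the spinal cord runs through glutamate receptors, and 33 mouse genes that encode their subunits and auxiliary proteins were followed here, out of 55487 genes in each table. The members are listed by name, in a list drawn up with earlier results of these data known: the AMPA receptor subunits Gria1 to Gria4, the kainate receptor subunits Grik1 to Grik5, the NMDA receptor subunits Grin1, Grin2a to Grin2d, Grin3a and Grin3b, the delta receptor subunit Grid1, the metabotropic receptors Grm2 to Grm8, and the auxiliary proteins Neto1, Neto2, Cnih2, Cnih3, Cacng2, Cacng4, Cacng5, Cacng7 and Cacng8. RNA sequencing was done in a study of motor neuron degeneration. The mouse material was labelled as lacking the microRNA miR-146a or was treated with an oligonucleotide meant to block it, beside controls. Snap-frozen spinal cords gave 9 libraries of genotype miR-146a KO (knockout) and 4 libraries labelled WT (wild type). Motor neurons of wild-type genotype, differentiated from the single embryonic stem cell line RW.4 with retinoic acid and the Smoothened agonist SAG, gave 3 libraries after a miR-146a LNA and 3 after a control LNA. An LNA, or locked nucleic acid, is a stabilised oligonucleotide that here was meant to pair with a microRNA and block it. Both LNAs were used at 10 nM with Lipofectamine 2000 for 72 h, so the controls share the transfection. Age, sex and batch are not in the labels, and whether the replicates of a group were separate animals or cultures is not stated. The p-values therefore speak of the spread among these libraries alone, which may be technical.

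Ionotropic glutamate receptors are channels built from subunits around a central pore. AMPA and kainate receptors open quickly, NMDA receptors need both glutamate and depolarisation and pass calcium, and the AMPA subunit GluA2, encoded by Gria2, keeps AMPA receptors nearly impermeable to calcium once its RNA is edited. Auxiliary proteins set where these channels go and how they gate: TARPs (the Cacng genes) and cornichons (the Cnih genes) accompany AMPA receptors, and the Neto proteins accompany kainate receptors. Metabotropic receptors signal through G proteins, and motor neurons are known for their sensitivity to glutamate.

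A microRNA pairs with its targets mainly through the seed, bases 2 to 8 from its 5′ end, so the mature miR-146a sequence is shown first, in capitals over the seed. RefSeq places it on chromosome 11 from 43374435 to 43374456, minus strand (GRCm38.p6).
mmu-miR-146a-5p: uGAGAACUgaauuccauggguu
The reverse complement of that seed, AGTTCTC, was searched on the sense strand of the longest annotated 3′ UTR (the untranslated stretch after the stop codon) of each gene in GENCODE M21. It was present in 7 of 33 members (21.2%) and in 2345 of 21016 genes with an annotated 3′ UTR (11.2%), although the members' 3′ UTRs were also longer, with a median of 2256 bases against 961. The 7 members were Gria2, Gria3, Grik2, Grin2a, Grin2b, Grid1 and Grm5, of which Grik2 and Grin2b held 2 matches each. A match describes these letters and does not show that the microRNA binds there. The matches in the 3 members that were higher in treated cultures once genomic span was a covariate are shown, with the match in capitals.
Gria2: tattccaatattatAGTTCTCctaactt
Gria3: tgggttcagaccacAGTTCTCaatctga
Grik2, first match: tggaagcatgtaagAGTTCTCagcattt
Grik2, second match: ccaggctcaatgaaAGTTCTCtgacttg
The matches in the other 4 members are shown because those members were not higher in that fit.
Grid1: ttgatattcaagcaAGTTCTCtaggggg
Grm5: tttatttctttgacAGTTCTCacaaaca
Grin2a: gtttggcttgtaacAGTTCTCagctttc
Grin2b, first match: ctcctcccttgcgcAGTTCTCttcttcc
Grin2b, second match: cagtaggcatttctAGTTCTCctgaccc

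Total counts were 28163289 to 39577247 in cords and 40647549 to 65471742 in cultures, so that 3 counts, the limit set by a count of 0, correspond to 0.0758 to 0.107 CPM (counts scaled to a fixed library total) in cords and 0.0458 to 0.0738 CPM in cultures, for counting error only. The precursor gene Mir146 had 1 count in all KO libraries together and 0 in every other group, so it checks neither genotype nor LNA. Its neighbour Pttg1 stood at 14.9 to 17.4 normalised CPM in WT cords and at 1.06 to 1.81 in KO replicates 1 to 8, but at 13.04 in the library labelled KO replicate 9. That library goes against its label at Pttg1, and it also carried Sod1 at 1947 normalised CPM, against 261 to 275 in WT cords. KO replicate 7 held the muscle actin gene Acta1 at 2564 normalised CPM, against 1.13 to 6.03 in WT cords. The main counts of members in cords, and the fold changes and class sums printed there, are given with and without these 2 libraries. Of the motor neuron markers, Chat stood at 80.7 to 92.6 normalised CPM and Mnx1 at 39.4 to 44.7 in the 6 cultures, while the 5 microglial markers summed to at most 0.606 normalised CPM there. The 6 astrocyte markers summed to 12.8 to 14.01 normalised CPM in the 3 control cultures. Among them Aldoc stood at 8.56 to 9.59 normalised CPM there, while Aqp4 was at 0 in all 3.

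Levels were compared between genes as TPM (counts scaled for a single deposited length per gene and for the library total), so their order depends on that length. In WT cords the TARP gene Cacng7 led the members at a median of 290 TPM (range 272 to 304). Grin1, the obligatory NMDA subunit, followed at 119.8 TPM (115 to 128). Grik5, which encodes a high-affinity kainate subunit, stood at 103 TPM (99.6 to 106) and Gria1 at 95.8 TPM (91.0 to 111), and the ranges of these last 2 overlapped. The least abundant was Grm6, the receptor of retinal ON bipolar cells, with 6 counts in 4 WT libraries. The members formed another order in control cultures. Cnih2 led at 371 TPM (367 to 376), followed by Gria1 at 146 TPM (143 to 156), Cacng4 at 144 TPM (130 to 144) and Gria4 at 105 TPM (98.3 to 109). The ranges of Gria1 and Cacng4 overlapped.

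The composition of the set therefore differed between the materials, as a description of levels with no test. NMDA subunits made up 17.2% ± 0.322 (SD, n = 4) of the summed member TPM in WT cords and 4.75% ± 0.0793 (SD, n = 3) in control cultures. Cornichons made up 5.75% ± 0.658 and 29.98% ± 0.736, and TARPs 33.5% ± 1.53 and 17.6% ± 1.44. Of Grin2a and Grin2b, the subunits that give NMDA receptors their faster and slower decay, Grin2a held 67.1% ± 1.16 of the pair's TPM in WT cords and 19.8% ± 3.82 in control cultures. Grin2c, Grm3 and Cacng8 stood at 24.5, 49.9 and 49.9 TPM in WT cords and at 0.215, 0.817 and 2.66 TPM in control cultures. Grin3b stood at 9.95 TPM in WT cords and had 6 counts in the 3 control cultures together. Cords hold many cell types, so that in such bulk samples fewer cells of a type and less RNA per cell cannot be told apart.

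**Figure D1:**
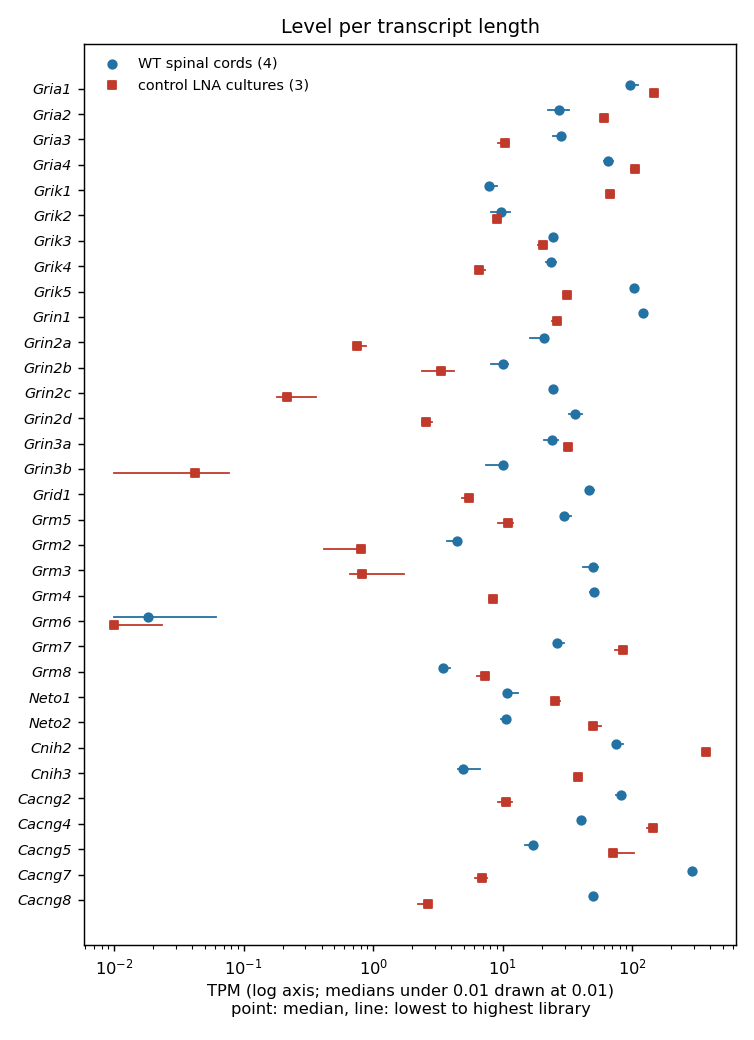
TPM of all 33 members on a log axis, as the median (point) and the lowest to highest library (line) of 4 WT spinal cords and 3 control LNA cultures; medians under 0.01 are drawn at 0.01. Cacng7 leads in cords at 290 TPM and Cnih2 in cultures at 371 TPM, and Grin2c, Grin3b, Grm3 and Cacng8 sit far lower in cultures than in cords.

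The culture comparison asks what differed after an LNA against miR-146a in wild-type motor neurons. Whether miR-146a was in fact blocked was not tested. Of 31 members that passed the filter on low counts, 12 fell and 0 rose at an adjusted p under 0.05 (edgeR quasi-likelihood test, Benjamini-Hochberg over 19099 genes). The background was 8.56% of all tested genes called, 6.16% lower and 2.4% higher. At an unadjusted p under 0.05, 17 members were lower and 1, Gria2, higher, where 13.1% and 9.81% of all tested genes were. Of 1635 genes called, 1177 were lower; with scaling by library size alone 831 of 1572 were, and 10 members fell. Grin3b and Grm6 did not pass the filter. The 12 were 4 of 5 kainate subunits, 2 of 4 AMPA subunits, 1 of 6 tested NMDA subunits, the delta subunit, 2 of 6 tested metabotropic receptors, 1 of 2 Neto genes and 1 of 5 TARPs, with 0 of 2 cornichons. The log2 fold change was negative in 27 of 31 members against 48.5% of all tested genes, and its median was −0.31 against 0.01. In 18 members every miR-146a LNA library lay below every control library, a pattern held by 15.1% of all tested genes, and only in Gria2 did every one lie above, as in 12.8% of all genes.

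Of the kainate receptor subunits, Grik1, Grik3, Grik4 and Grik5 fell. The summed level of all 5 was 135 ± 5.76 TPM in control cultures (SD, n = 3) and 98.4 ± 1.29 TPM after the miR-146a LNA. Grik3 (chromosome 4, 125490700 to 125714173, GRCm38) encodes the low-affinity subunit GluK3. It measured 44.0, 50.9 and 48.4 normalised CPM in control replicates 1 to 3 and 32.7, 24.5 and 29.7 after the miR-146a LNA. All 3 treated cultures lay below all 3 controls, and the log2 fold change was −0.73 (SE 0.10, edgeR adjusted p = 0.000155).

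Grik1 (chromosome 16, 87895900 to 88290265) encodes GluK1. It stood at 116, 128 and 119 normalised CPM in controls and 85.0, 89.3 and 86.3 after the miR-146a LNA, again without overlap (log2 fold change −0.48, SE 0.06, edgeR adjusted p = 4.36e-05). Grik5 (chromosome 7, 25009849 to 25072346) encodes the high-affinity subunit GluK5, which needs a GluK1 to GluK3 partner to reach the surface. Its values were 42.3, 42.2 and 40.4 against 32.6, 31.9 and 31.8 normalised CPM (log2 fold change −0.38, SE 0.07, edgeR adjusted p = 0.00177). The treated values of Grik5 kept within 1 CPM of each other and below every control. Grik4, the other high-affinity subunit, stood at 10.2, 11.4 and 9.82 in controls and 8.86, 7.31 and 6.98 after the LNA (−0.45, SE 0.13, edgeR adjusted p = 0.0387). That call for Grik4 was lost, with the same sign, when any library other than miR-146a LNA replicate 1 was left out (adjusted p 0.0674 to 0.202).

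Grik2 was the exception among the kainate subunits. It encodes GluK2, and it stood at 30.2, 31.4 and 31.4 normalised CPM in controls and 27.0, 32.1 and 34.2 after the miR-146a LNA. The 2 groups overlapped (log2 fold change 0.01, 95% interval −0.17 to 0.19). Within the summed TPM of the 5 subunits, Grik2 held 6.60% ± 0.203 in controls and 9.03% ± 1.10 after the LNA, and Grik3 held 15.01% ± 0.642 and 12.4% ± 1.72.

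Among AMPA subunits, Gria1 and Gria4 fell and Gria2 and Gria3 did not. Gria1 (chromosome 11, 57011387 to 57330244), which encodes GluA1, measured 228, 247 and 233 normalised CPM in controls and 190.1, 198 and 196 after the miR-146a LNA (log2 fold change −0.28, SE 0.05, edgeR adjusted p = 0.00168). Gria4 (chromosome 9, 4417896 to 4796234), which encodes the fast-gating GluA4, measured 180.3, 174 and 164 against 133, 126 and 125 (−0.44, SE 0.05, edgeR adjusted p = 6.01e-05). For both genes the groups did not overlap.

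Gria2 (chromosome 3, 80681450 to 80802835) went the other way in sign. It measured 249, 262 and 244 normalised CPM in controls and 265, 279.8 and 268 after the LNA (log2 fold change 0.11, SE 0.05, edgeR adjusted p = 0.2, 95% interval 0.0038 to 0.21). As a share of the summed TPM of the 4 AMPA subunits, Gria2 held 18.8%, 19.1% and 19.0% in control cultures and 23.6%, 24.4% and 23.8% in treated ones. The shares did not overlap. Their size depends on the deposited gene length that TPM divides by, 15548 bases for Gria2 and 6043 for Gria1. By normalised CPM, without that division, Gria2 stood at a mean of 251 and Gria1 at 236 in control cultures. Gria3 stood at 29.1, 27.1 and 23.8 normalised CPM in controls and 26.1, 30.4 and 27.7 after the LNA, with overlap (log2 fold change 0.07, 95% interval −0.11 to 0.26).

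**Figure D2:**
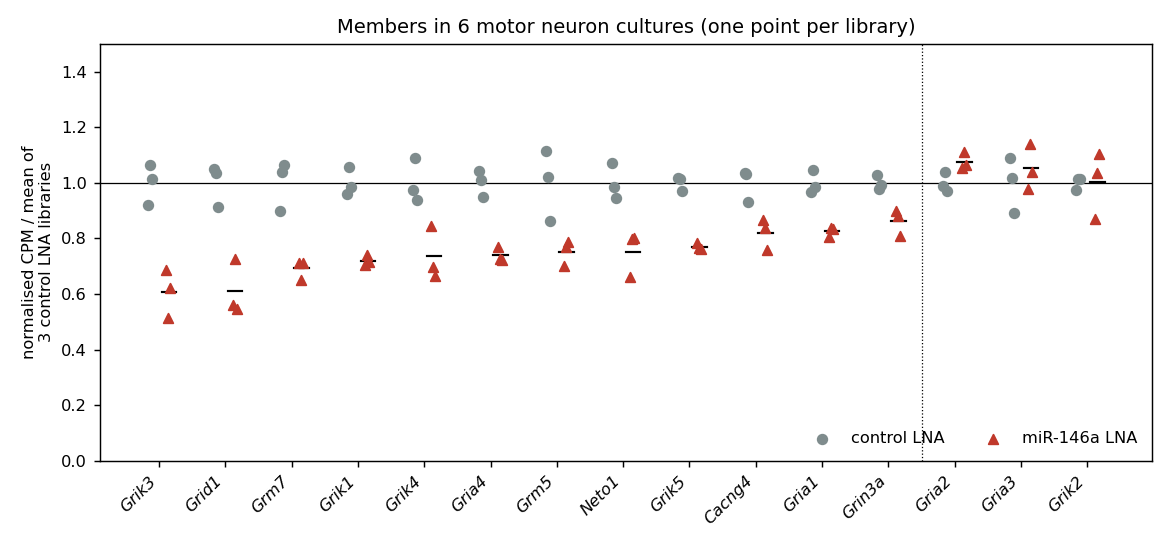
Normalised CPM of 15 members in each of the 6 motor neuron cultures, divided by the mean of the 3 control LNA libraries; grey circles are control LNA, red triangles miR-146a LNA, and short lines the mean of the 3 treated libraries. Left of the dotted line stand the 12 members that fell and right of it Gria2, Gria3 and Grik2; every treated value of the 12 lies below all 3 controls of its gene.

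Of the NMDA subunits only Grin3a passed the test, although all 6 that were tested had negative fold changes. Grin3a encodes GluN3A, which lowers calcium entry through NMDA receptors, and it measured 107, 102 and 103 normalised CPM in controls against 93.2, 91.4 and 84.0 (log2 fold change −0.21, SE 0.06, edgeR adjusted p = 0.0285). The call was lost without control replicate 1, 2 or 3 (adjusted p 0.0832 to 0.129). Grin1 measured 66.8, 69.0 and 61.9 in controls and 61.2, 56.4 and 54.4 after the LNA (log2 fold change −0.20, edgeR adjusted p = 0.0721, 95% interval −0.34 to −0.06). The ranges of Grin1 did not overlap. The remaining NMDA subunits were low here: Grin2b stood at 21.6 ± 6.09 normalised CPM in controls and 18.6 ± 0.270 after the LNA, Grin2d at 4.57 ± 0.412 and 3.63 ± 0.664, and Grin2a at 3.72 ± 0.364 and 2.83 ± 0.567 (SD, n = 3 each). None of these 3 passed, and the 95% intervals of their log2 fold changes reached from −0.62 to 0.18, from −0.72 to 0.05 and from −0.83 to 0.02.

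Grid1 (chromosome 14, 34820108 to 35583379) encodes the delta subunit GluD1, a synaptic organiser that binds glycine and cerebellin rather than glutamate. It fell from 8.73, 8.63 and 7.60 to 4.67, 6.03 and 4.55 normalised CPM (log2 fold change −0.71, SE 0.15, edgeR adjusted p = 0.00579). Grm5, the only group I metabotropic receptor among the members and one that couples to calcium release, measured 32.4, 29.7 and 25.1 in controls and 20.4, 22.3 and 22.8 after the LNA (−0.41, SE 0.09, edgeR adjusted p = 0.0107). Its call was lost without miR-146a LNA replicate 1 or control replicate 1 or 2 (adjusted p 0.0537 to 0.0752). Neither gene's groups overlapped.

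Grm7 (chromosome 6, 110645581 to 111567230), a presynaptic group III receptor of low glutamate affinity, measured 113, 131 and 134 normalised CPM in controls and 89.6, 82.1 and 89.8 after the LNA (log2 fold change −0.53, SE 0.07, edgeR adjusted p = 6.64e-05). No treated culture reached the lowest control. Grm4 and Grm8, of the same group, and Grm2 and Grm3, the group II receptors, did not pass. Grm4 stood at 13.02 ± 0.696 normalised CPM in controls and 11.9 ± 1.17 after the LNA, Grm8 at 18.3 ± 1.59 and 15.9 ± 3.89, and Grm2 at 0.892 ± 0.308 and 0.781 ± 0.175. Their 95% intervals reached from −0.36 to 0.10, from −0.52 to 0.13 and from −0.93 to 0.56. Grm3 had the lowest fold change of any member (−1.46, 95% interval −2.44 to −0.48, edgeR adjusted p = 0.0626), from 8 to 28 counts per treated library against 29 to 73, and without miR-146a LNA replicate 3 it passed (adjusted p = 0.0278).

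The auxiliary proteins were divided. Neto1, which slows kainate receptor gating, measured 60.9, 56.02 and 53.6 normalised CPM in controls and 37.6, 45.3 and 45.5 after the LNA (log2 fold change −0.41, SE 0.08, edgeR adjusted p = 0.00324), without overlap. Neto2 did not pass (−0.19, edgeR adjusted p = 0.132, 95% interval −0.34 to −0.03). Cacng4 (chromosome 11, 107732357 to 107794557), which encodes TARP γ-4, measured 136, 136 and 122 in controls and 114, 109.7 and 99.4 after the LNA (−0.29, SE 0.06, edgeR adjusted p = 0.00714), a call lost without control replicate 2 (adjusted p = 0.066). Cacng2, which encodes stargazin, stood at 15.3 ± 1.80 against 12.4 ± 0.859 normalised CPM and did not pass (−0.31, edgeR adjusted p = 0.0964, 95% interval −0.54 to −0.08). Cacng8 likewise did not pass (−0.61, edgeR adjusted p = 0.176), nor did Cacng7, which stood at 4.39 ± 0.448 and 3.45 ± 0.421 (95% interval −0.73 to 0.03). Cacng5 was the most variable TARP, at 82.2 ± 19.1 and 97.6 ± 18.1 normalised CPM (95% interval −0.33 to 0.83). The cornichons Cnih2 and Cnih3, the first of them the most abundant member in these cultures by TPM, had 95% intervals of −0.17 to 0.06 and −0.23 to 0.12.

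Cell type markers gave these values in the same 6 libraries. The 7 motor neuron markers summed to 2995 to 3163 normalised CPM after the miR-146a LNA and 2975 to 3076 in controls, and the 7 neuronal markers to 7826 to 7968 and 7448 to 7796. The 4 inhibitory interneuron markers summed to 19.2 to 21.2 and 28.4 to 38.5, and 3 of the 4 fell. The 3 excitatory interneuron markers summed to 1.36 to 1.92 and 2.15 to 2.62, and the 5 progenitor markers to 67.5 to 80.6 and 52.6 to 61.4. The part of these cell types in the members' values was not tested.

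The members lie in long genes, and genomic span (the distance from a gene's start to its end, introns included) moved with the culture fold changes over the whole transcriptome. The members spanned 5.65 to 921.65 kb, with a median of 121 kb. Over all tested genes the median log2 fold change was 0.12 for genes under 10 kb, 0.01 from 10 to 30 kb, −0.04 from 30 to 100 kb, −0.13 from 100 to 300 kb and −0.30 over 300 kb. The share of genes that fell rose along the same order, from 0.977% through 2.55%, 8.05% and 21.5% to 43.6% of 550 genes over 300 kb. The members that fell were 0 of 1, 0 of 4, 2 of 7, 3 of 8 and 7 of 11 in these classes of span. Spearman's rho between span and log2 fold change was −0.35 across all tested genes and −0.23 across the 31 members, given as a description because genes of the same 6 libraries are not independent.

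In cords rho was 0.02 across all tested genes and 0.54 across the 32 tested members, the shorter members having the lower fold changes. Both values were computed with all cord libraries, and rho was not recomputed without KO replicates 7 and 9. The library labelled KO replicate 9 stood far above the other KO cords for Grin2b, Grik2 and Grm7, which have long spans. How far the members' rho rests on that library was not tested. The cord curve over all genes was nearly flat, with medians of at most 0.04 in size in the 5 classes of span. Span was therefore entered as a covariate by fitting a smooth curve on span in each library and using it as an offset for every gene. The curve was fitted to log2 CPM less each gene's mean over the libraries. In cultures this brought the members' median log2 fold change from −0.31 to −0.17, and 24 of 31 stayed negative against 49% of all tested genes.

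**Figure D3:**
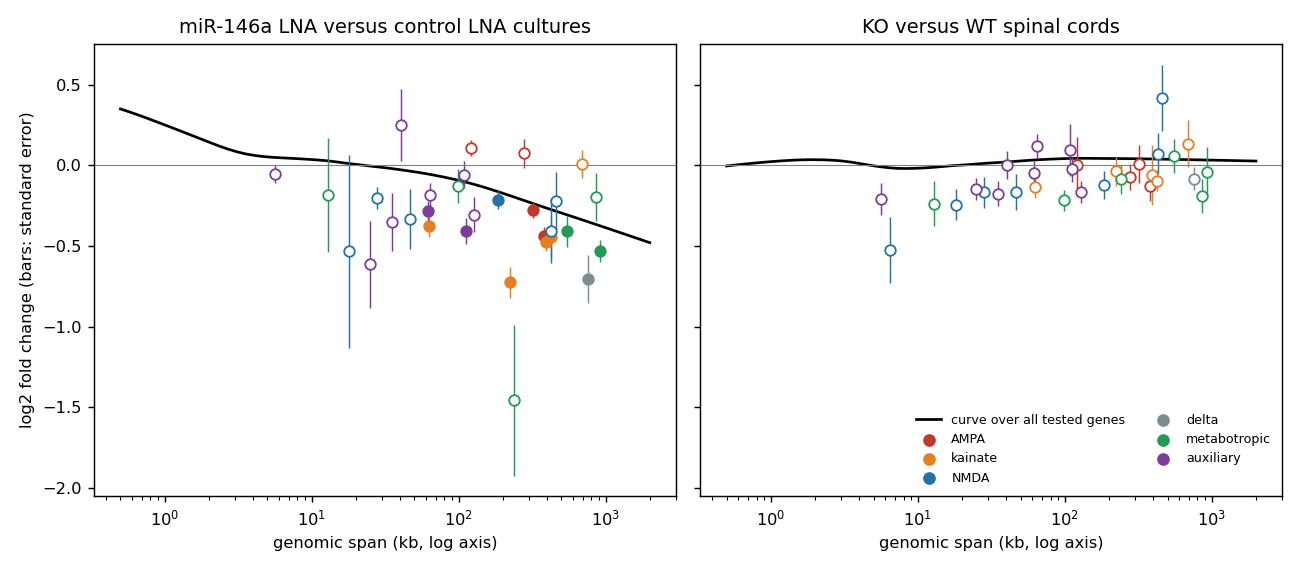
Log2 fold change (bars: standard error) of each tested member against genomic span on a log axis, for cultures (left) and cords (right); colours give the receptor class, filled circles passed an adjusted p of 0.05, and the black line is the smoothed curve over all tested genes. The culture curve falls to −0.37 at 900 kb while the cord curve stays near 0, at 0.03, and Grik3, Grik5, Neto1 and Cacng4 lie below the culture curve while Gria2, Gria3 and Grik2 lie above it.

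With span as a covariate, 5 members were lower and 3 higher at an adjusted p under 0.05, where 3.4% and 2.79% of all tested genes were. The 5 lower members all belonged to the 12. Grik3 was at −0.53 (SE 0.10, edgeR adjusted p = 0.00365), Grik5 at −0.31 (SE 0.07, 0.00857), Neto1 at −0.30 (SE 0.08, 0.0274), Grik1 at −0.21 (SE 0.06, 0.0291) and Cacng4 at −0.23 (SE 0.06, 0.0295). All 5 are either kainate subunits, a kainate auxiliary protein or a TARP. The other 7 of the 12 no longer passed: Gria4 was at −0.17 (edgeR adjusted p = 0.0525), Grid1 at −0.35 (0.149), Grm7 at −0.16 (0.245), Grik4 at −0.17 (0.497), Grm5 at −0.10 (0.609), Grin3a at −0.04 (0.725) and Gria1 at −0.04 (0.747).

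The 3 that rose with span as a covariate were Gria2, at 0.23 (SE 0.05, edgeR adjusted p = 0.00628), Grik2, at 0.35 (SE 0.09, 0.0198), and Gria3, at 0.30 (SE 0.08, 0.0416). For Grik2 and Gria3 the normalised CPM themselves overlapped between groups, so this rise is relative to genes of like span. All 3 hold the miR-146a seed match printed above, whereas Grid1, Grm5, Grin2a and Grin2b hold one and did not rise with span as a covariate. Over all genes with an annotated 3′ UTR, 2.9% of 1828 tested genes with the match rose in that fit and 3.72% of 12512 without it did, while 7.39% and 3.77% fell. Among genes with a 3′ UTR of at least 2000 bases, 2.94% of those with the match rose and 8.4% fell, against 3.29% and 6.27% of those without it. Genes with the match had a median span of 39.6 kb and those without it 24.0 kb.

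Single libraries weighed on these covariate results. With each culture library left out in turn, 2 to 9 members passed: 2 without control replicate 2, 4 without miR-146a LNA replicate 2, and 5 without control replicate 1 or control replicate 3. Grik3 and Gria2 passed in 6 of 6 such fits, with adjusted p-values of at most 0.0293 and 0.0446. Grik5 passed in 5 of 6 and missed without control replicate 2 (0.0661). Cacng4, Gria3 and Grik2 passed in 3 of 6, and Grik1 and Neto1 in 2 of 6, without a change of sign.

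**Figure D4:**
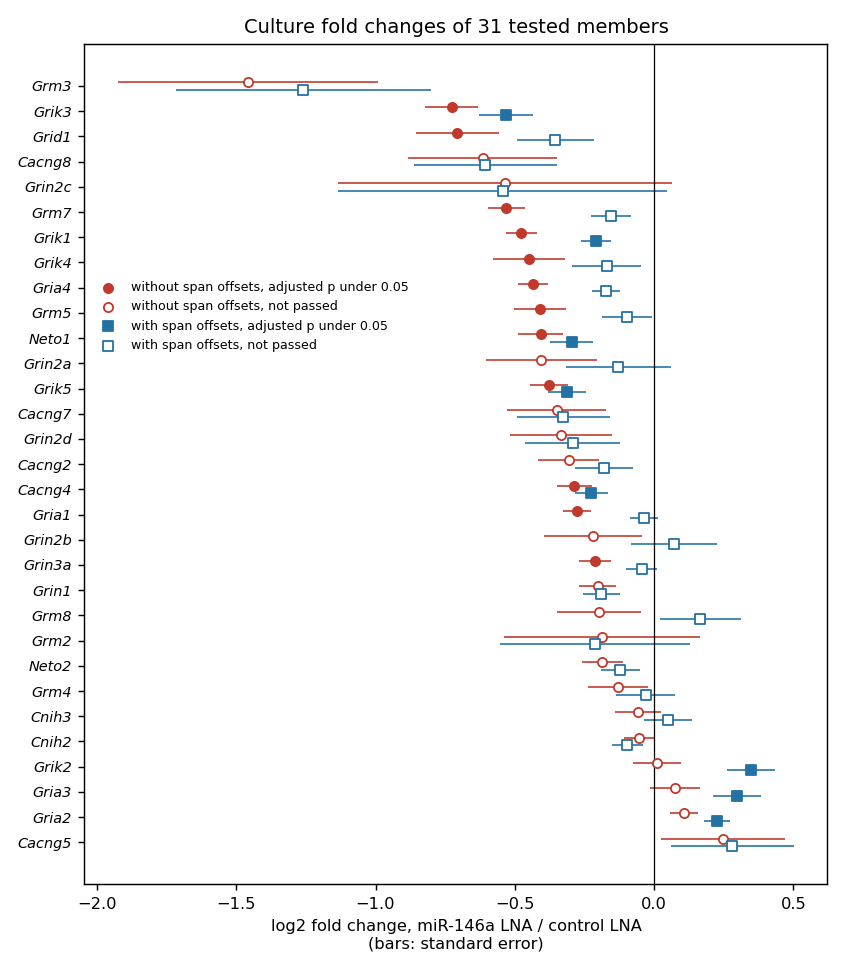
Log2 fold changes, miR-146a LNA over control LNA, of the 31 tested members, without (red circles) and with (blue squares) span as a covariate; bars are standard errors and filled symbols have an adjusted p under 0.05. With the covariate most members move towards 0, Grik3 stays at −0.53, and Gria2, Gria3 and Grik2 come to lie at 0.23, 0.30 and 0.35.

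Genes that work with these receptors were read from 3 lists of 42 genes in all, covering other receptor and auxiliary genes, postsynaptic scaffolds, and AMPA receptor assembly and traffic. In cultures 10 of 42 fell and 1 rose, where 6.16% of all tested genes fell and 2.4% rose. The median log2 fold change of the 42 was −0.14. Nsf, an ATPase that binds GluA2, fell by 0.41 on the log2 scale (edgeR adjusted p = 3.44e-05). The scaffold genes Dlg2, Dlgap1, Grip1 and Sorbs2 fell by 0.51, 0.63, 0.30 and 0.33, and the auxiliary gene Shisa6 by 0.39. Homer3, which links metabotropic receptors to calcium stores, rose (0.45, edgeR adjusted p = 0.00375). With span as a covariate 2 fell, Nsf (−0.28) and Shisa7 (−0.24), and 2 rose, Homer3 (0.43) and Shank2 (0.29). Shank2 did not pass without the covariate, so its rise is relative to genes of like span. The names Shisa7 and Shank2 were picked after their values were seen. In that fit 3.4% of all tested genes fell and 2.79% rose.

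The cord comparison asks what differs in spinal cords labelled miR-146a KO. Of 32 tested members 0 passed an adjusted p of 0.05, as did 0 of all 22174 tested genes (0%), with edgeR. DESeq2 and limma called 388 and 3 genes, 0 of them members. At an unadjusted p under 0.05, 6 members were lower in KO cords and 0 higher, where 6.8% of all tested genes were lower and 7.53% higher. The log2 fold change was negative in 23 of 32 members against 46.9% of all genes, with a median of −0.09 against 0.02. With span as a covariate it was negative in 26 of 32 against 46.1%, and 0 passed. Without KO replicates 7 and 9 the count at an unadjusted p under 0.05 was 4 lower (Grm4, Cacng2, Grin2c and Grin3b) and 2 higher (Grin2b and Neto2), where 6.01% of 21573 tested genes were lower and 8.94% higher. The log2 fold change was then negative in 20 of 32 members against 47.4% of all genes, with a median of −0.09 against 0.01. In that fit 0 members passed an adjusted p of 0.05 and 8 of all tested genes (0.0371%) did, and with span as a covariate as well 0 members and 7 genes (0.0324%) passed. The log2 fold change of Neto2 was 0.12 with all cord libraries and 0.17 without KO replicates 7 and 9 (edgeR adjusted p = 0.265).

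Grm4 (chromosome 17, 27422387 to 27521403), a presynaptic group III receptor, was the one member whose groups did not overlap, as in 0.798% of all tested genes. It measured 95.8 to 99.5 normalised CPM in the 4 WT cords (median 96.6) and 73.3 to 94.7 in the 9 KO cords (median 85.9). All 9 cords labelled KO lay below every WT cord, and the log2 fold change was −0.22 (SE 0.06, edgeR adjusted p = 0.292). The lowest value was that of the library labelled KO replicate 9, which goes against its label at Pttg1. Without KO replicates 7 and 9 the remaining 7 KO cords measured 75.4 to 94.7 normalised CPM (median 87.7) and still lay below every WT cord, as in 1.12% of all tested genes, and the log2 fold change was −0.17 (SE 0.05, edgeR adjusted p = 0.189). Leaving out single libraries gave adjusted p-values of 0.13 to 0.569.

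The other 5 at an unadjusted p under 0.05 overlapped between groups. Cacng2 stood at 145 ± 7.65 normalised CPM in WT and 129 ± 10.7 in KO cords (log2 fold change −0.17, edgeR adjusted p = 0.310, 95% interval −0.31 to −0.02). Cacng7, the most abundant member in cords by TPM, stood at 229 ± 14.1 and 203 ± 21.4 normalised CPM (−0.18, edgeR adjusted p = 0.341). Grik5 stood at 173 ± 3.51 and 157 ± 12.0 (−0.14, edgeR adjusted p = 0.337). Grin2c, an NMDA subunit found in astrocytes as well as neurons, stood at 40.2 ± 2.34 and 33.97 ± 4.56 (−0.24, edgeR adjusted p = 0.302). Grin3b, which encodes a glycine-binding NMDA subunit of motor neurons, stood at 10.1 ± 1.32 and 7.04 ± 2.13 (−0.53, edgeR adjusted p = 0.305). Without KO replicates 7 and 9 the log2 fold changes were −0.14 for Cacng2, −0.11 for Cacng7, −0.09 for Grik5, −0.21 for Grin2c and −0.41 for Grin3b (edgeR adjusted p = 0.317 to 0.424). Grik5 is the one of the 5 in which a single library stood far from its group: KO replicate 7 was at 128 normalised CPM and the other KO cords at 155 to 170.5, and without that library alone its log2 fold change was −0.09 (edgeR adjusted p = 0.374). In each of the 5, KO libraries spread more widely than WT libraries. The 4 classes with the highest summed TPM were AMPA subunits at 219 ± 17.1 TPM in WT and 222 ± 32.3 in KO cords, kainate subunits at 169 ± 6.65 and 165 ± 18.6, NMDA subunits at 245 ± 11.2 and 233 ± 33.6, and TARPs at 477 ± 21.05 and 447 ± 38.6 (SD, n = 4 and 9). Without KO replicates 7 and 9 the KO sums were 223 ± 23.7, 164 ± 9.93, 233 ± 22.3 and 455 ± 33.1 TPM (SD, n = 7). With and without them, the differences were smaller than the SD of the KO libraries in each of these 4 classes. That did not hold in every smaller class. Group III metabotropic receptors stood at 80.6 ± 3.47 TPM in WT and 75.7 ± 9.82 in KO cords, or 74.1 ± 4.90 without KO replicates 7 and 9. Group II receptors stood at 53.3 ± 5.51, 52.0 ± 7.88 and 49.9 ± 3.22 in the same order. The Neto genes, higher in KO cords, stood at 21.7 ± 1.87, 23.4 ± 1.60 and 23.6 ± 0.938.

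Grin2b, Grik2 and Grm7 stood far above the other KO cords in 1 library. Grin2b, the NMDA subunit dominant in development, ranged from 68.4 to 89.9 normalised CPM in WT cords and from 82.0 to 104 in KO replicates 1 to 8, but stood at 199 in the library labelled KO replicate 9. Its log2 fold change was 0.42 (SE 0.21, edgeR adjusted p = 0.375) with that library and 0.25 (edgeR adjusted p = 0.217) without it, so that a smaller positive difference stayed. Grik2 stood at 72.5 there, against 36.3 to 46.8 in the other KO and 35.7 to 47.2 in WT cords, and its log2 fold change of 0.13 became 0.03 without that library. Grm7 stood at 82.4 there, against 36.1 to 50.9 in the other KO and 48.2 to 55.5 in WT cords, and its log2 fold change of −0.04 became −0.16, larger in size, without that library. The same library had the highest Gria2 share and the lowest Grin2a share of all 13 cords: Gria2 held 17.3% of AMPA subunit TPM there, against 11.06% to 13.4% in WT cords, and Grin2a held 53.5% of Grin2a and Grin2b TPM, against 66.3% to 68.8% in WT cords. The KO medians were 12.05% and 63.1%. Without KO replicates 7 and 9 together the log2 fold changes were 0.25 for Grin2b, 0.07 for Grik2 and −0.10 for Grm7 (edgeR adjusted p = 0.164, 0.704 and 0.366).

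**Figure D5:**
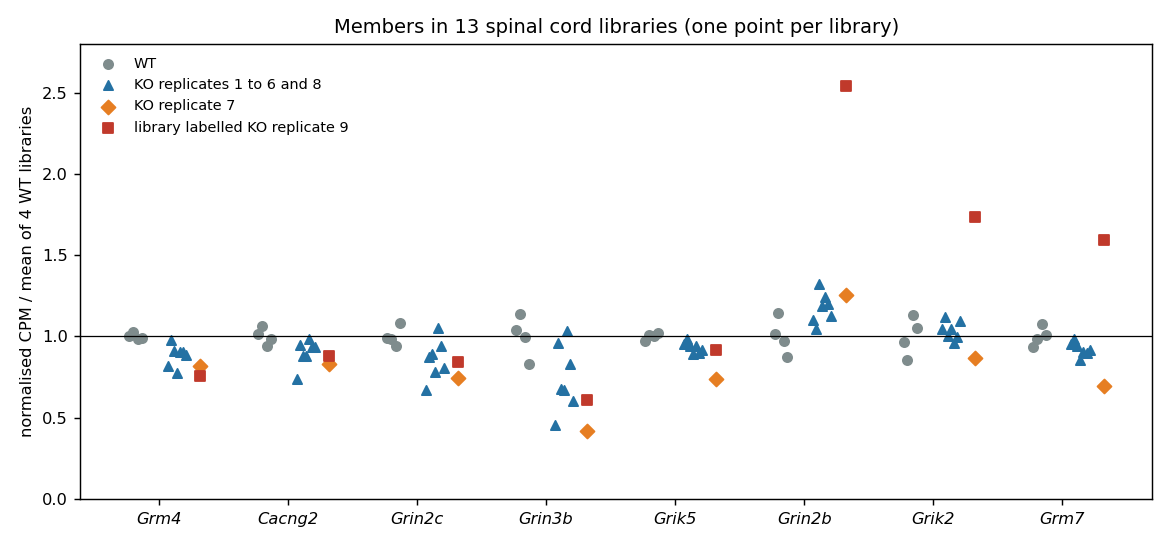
Normalised CPM of 8 members in the 13 spinal cord libraries, divided by the mean of the 4 WT libraries; grey circles are WT, blue triangles KO replicates 1 to 6 and 8, the orange diamond KO replicate 7 and the red square the library labelled KO replicate 9. All 9 values of Grm4 labelled KO lie below the 4 WT values, the lowest being the red square, whose Pttg1 goes against its label, and the red square stands alone above the rest for Grin2b, Grik2 and Grm7.

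In the cords the 7 neuronal markers summed to 3379 to 4567 normalised CPM in KO and 4431 to 5017 in WT libraries, and all 7 had negative fold changes. The 4 inhibitory interneuron markers summed to 862 to 1297 and 1169 to 1208, and the 7 motor neuron markers to 194 to 440.2 and 268 to 317. The 6 astrocyte markers summed to 3671 to 8799 and 3837 to 4799.6, and the 5 microglial markers to 166 to 661 and 182 to 223. For the 3 excitatory interneuron markers the sums were 144 to 211 and 193 to 203. Those of the 5 oligodendrocyte markers were 10627 to 15002 and 11671 to 15930, and of the 3 oligodendrocyte precursor markers 115 to 210 and 107 to 126. The 5 red blood cell markers summed to 35.7 to 694 and 22.6 to 44.3, with a median log2 fold change of 2.97. Their part in the members' lower values was not tested. Of the 42 related genes, 0 passed in cords, as did 0 of all 22174 tested genes. Fold changes were negative in 37 of the 42, against 46.9% of all tested genes.

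Whether the deletion and the LNA changed a member differently was tested as the difference of the 2 log2 fold changes in 1 fit over all 19 libraries. Of 32 tested members 2 passed, Grik3 and Grid1, where 1.75% of 24152 tested genes were called and 1.25% in the same direction. At an unadjusted p under 0.05 the KO effect was the higher in 13 members and the lower in 0, where 8.68% and 5.52% of all tested genes were. The difference was negative in 7 of 32 members against 45.3% of all genes. The 7 include Grin3b, at −0.52 (SE 0.96). It did not pass the filter in cultures alone, where it had 6 counts in each LNA group, so its LNA effect was hardly measured. For Grik3 the KO effect exceeded the LNA effect by 0.71 (SE 0.15, edgeR adjusted p = 0.017), being −0.04 in cords and −0.73 in cultures. For Grid1 it exceeded it by 0.64 (SE 0.14, edgeR adjusted p = 0.0229), being −0.08 in cords and −0.71 in cultures. With span as a covariate the difference was negative in 11 of 32 members against 51.8% of all genes, and 0 members passed, where 0.352% of all genes were called lower and 0.224% higher. Neither Grik3 (0.46, edgeR adjusted p = 0.254) nor Grid1 (0.25, edgeR adjusted p = 0.427) passed in that fit, nor did they with scaling by library size alone (adjusted p = 0.0534 and 0.0554). Grik3 missed the threshold without miR-146a LNA replicate 2 (0.0501) or control replicate 2 (0.0568), and Grid1 without WT replicate 1, miR-146a LNA replicate 1 or 3, or control replicate 1 or 2 (0.054 to 0.0957). Without KO replicates 7 and 9 together 10 members passed, namely Gria1, Grik3, Grik4, Grik5, Grid1, Grm3, Grm5, Grm7, Neto1 and Cacng4, each with the LNA effect the more negative, where 4.08% of 23485 tested genes were called and 3.03% in that direction. With span as a covariate in that fit 1 member passed, Gria3, and none of these 10 did, where 0.979% of all genes were called lower and 0.826% higher. For Gria3 the KO effect lay below the LNA effect by −0.39 on the log2 scale (SE 0.10, edgeR adjusted p = 0.0447), while Grik3 (0.52, edgeR adjusted p = 0.0546) and Grid1 (0.29, edgeR adjusted p = 0.18) missed the threshold. Material, deletion and LNA differ together in this comparison and cannot be told apart.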

How the data were processed

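Gene tables of 19 libraries were used, grouped by genotype or LNA label alone. Reads were aligned with STAR 2.7.9a to GRCm38 and counted with featureCounts, per the submitters' processing notes; the strand setting is not given in the sources used here, so reads from overlapping and antisense genes may be mixed. All tests ran on the integer counts deposited by the authors. Deposited CPM (counts over the library total) and deposited FPKM (CPM over gene length) entered no result. Deposited TPM gave the levels that are compared between genes, untested. It rests on a single deposited length per gene, whichever transcripts are expressed. Symbols for 55141 genes (99.38%) came from GENCODE M21, in which all 33 members have the same start and end.

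Each comparison was fitted on its own groups in R 4.3.3 with edgeR 4.0.16 (quasi-likelihood, robust), genes being filtered by filterByExpr and libraries scaled by TMM. P-values were adjusted by Benjamini-Hochberg over all tested genes, at a threshold of 0.05. The difference between the KO and LNA effects was a contrast in 1 fit over all 19 libraries. Normalised CPM means CPM after TMM scaling. Span offsets were a lowess curve (fraction 0.3) on log10 genomic span in each library. The curve was fitted to log2 CPM (prior count 2) less each gene's mean over the libraries of the fit. For the difference between effects that mean ran over all 19 libraries. The members and gene lists were chosen with earlier results of these data known. Named by rule were all members that passed in a comparison and its 5 smallest p-values, and of related genes the 8 smallest p-values among those that passed, of which 1 is not reported here. Results were recomputed with DESeq2 1.42.0, with limma 3.58.1 (voom, sample quality weights), with other scalings, without the filter, with a replicate block in cultures, with span offsets and with libraries left out. Span offsets without KO replicates 7 and 9 (in cords and in the difference between effects), the member summaries without these libraries, and span offsets with each culture library left out, were chosen after seeing the data. Within groups, chi-square per degree of freedom between 2 libraries was at least 6.42, so no library was counted as a repeat of another. On simulated counts the test recovered 62% of 100 genes changed by 0.5 and 84% of 100 changed by 1 (log2) in the culture design over 19099 genes. In the cord design over 22174 genes it recovered 37% and 73%. Of 156 genes called in the culture design 10 were false, and of 115 in the cord design 5. The changed genes were drawn from those with a mean above 1 CPM, so these rates do not cover members below it. No span trend and no library standing apart from its group was simulated.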

Additional observations from a re-analysis of the deposited data

Results flagged for a closer look

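Of 64 member groups of cord libraries checked, 5 had 1 library far from the rest of its group; chance alone flags about 1 group in 20. In the library labelled KO replicate 9, Grin2b stood at 199 normalised CPM against 82.0 to 104 in the other KO cords, Grik2 at 72.5 against 36.3 to 46.8, and Grm7 at 82.4 against 36.1 to 50.9. In KO replicate 7, Grik5 stood at 128 normalised CPM against 155 to 170.5 in the other KO cords, and Cacng4 at 35.8 against 43.6 to 50.3. The same libraries carried Sod1 at 1947 and Acta1 at 2564 normalised CPM, respectively, and the part of what sets them apart in these 5 values was not tested.

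The KO effect in cords and the LNA effect in cultures differed for Grik3 (0.71 on the log2 scale, edgeR adjusted p = 0.017) and Grid1 (0.64, edgeR adjusted p = 0.0229), by a test of the difference itself. With span as a covariate the differences were 0.46 (adjusted p = 0.254) and 0.25 (adjusted p = 0.427).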

How the results depend on the processing

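In cords 0 members passed under every alternative run. In cultures 12 members passed by the main test, 14 with DESeq2, 12 with limma, 12 with RLE size factors, 10 with library size alone, 13 with no filter and 8 with span as a covariate, of which 5 are among the 12; leaving out single libraries gave 8 to 12. Scaling by library size alone moved the median of all genes from 0.01 to 0.05, and 831 of 1572 genes then called were lower, against 1177 of 1635. Whether the culture replicate numbers mark a shared set-up is not stated. Deviations of same-numbered libraries correlated at 0.0098, −0.050 and 0.0057, and those of other pairs at −0.080 to 0.078. With 3 libraries per group these values show no visible pairing but cannot exclude one. With the replicate block 13 members passed, or 8 with the replicate block and span offsets. With span offsets, leaving out single libraries gave 2 to 9 members (8 with all). The difference between KO and LNA effects held for 2 members by the main test, 6 with limma, 0 with library size alone, 0 with span offsets, 10 without KO replicates 7 and 9 together, 1 with span offsets and without both, and 1 to 4 with single libraries left out. DESeq2 gave 3. A match to bases 2 to 8 with A opposite base 1 was present in 4 members rather than 7 (12.1%, against 4.07% of all genes with an annotated 3′ UTR). A match to bases 2 to 7 with A opposite base 1 was present in 7 members (21.2%, against 12.4%). Those include Grik3 and Grin3a, which fell in cultures and lack a match to bases 2 to 8. The sign of Grik2 in cultures (0.01) turned with limma (−0.042) and ranged from −0.063 to 0.10 with single libraries left out; Gria3 ranged from −0.0025 to 0.14, and Grm7 in cords from −0.16 to 0.018. The causes of these changes were not tested. Depth limits the least abundant members in cultures: from 6 to 25 counts per library, Grin2c had a 95% interval of −1.80 to 0.73.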
